A study of Mus musculus with 7 samples.

Results

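The interferon regulatory factors are DNA-binding proteins that switch interferon genes and interferon-responsive genes on or off. The 7 members described here are Irf1, Irf2, Irf3, Irf5, Irf7, Irf8 and Irf9, taken by gene symbol from the 35498 genes of the deposited quantification. They were measured by strand-specific mRNA sequencing of bone marrow from female mice aged 5 to 6 months. One group was 3 libraries from Aim2 KO mice, labelled as null for Aim2, which encodes a sensor of DNA in the cytosol. The other was 4 libraries from WT mice with no allele or treatment named. The labels give neither the strain nor the deleted part of Aim2, and it is not stated whether every library is a separate mouse. The p-values then reflect only how libraries of a group vary, which may be technical. By its title, the study asked how loss of Aim2 bears on adipocyte formation in marrow. All 7 members had enough reads to be tested.

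In the textbook account, Irf3 lies ready in most cells and is switched on by the kinases Tbk1 and Ikbke when nucleic acid is sensed, so that the first interferon is made. Irf7 is itself induced by interferon and widens that production. Irf9 works with Stat2 in a complex that binds interferon-stimulated response elements (ISRE) and carries the type I interferon signal to its target genes. Irf1 drives many genes of the interferon gamma response and its own gene holds a gamma-activated site (GAS), Irf2 competes with it on shared sites, Irf5 acts below Toll-like receptors in myeloid cells, and Irf8 is needed for monocytes and dendritic cells to form.

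Libraries held 20777315 to 21027429 estimated reads in Aim2 KO and 20300468 to 21099972 in WT. Aim2 had 157, 47 and 59 reads in the Aim2 KO libraries, against 533 to 601 in WT, a difference of -2.76 ± 0.38 on the log2 scale (SE) with an adjusted p = 0.028 by edgeR, and Aim2 KO library 1 kept 26.5% of the WT mean. The Aim2 call was lost without any single library other than Aim2 KO library 1 (adjusted p up to 0.097). Settings that allow for transcript length gave a smaller difference for Aim2, -1.28 with an effective-length offset and -1.08 and -1.17 on log2 TPM with a pseudocount of 1 and 0.1. The call was also lost on both TPM scales (adjusted p = 0.0537 and 0.054) and with the sample number as a replicate block (0.0636). In TPM, Aim2 KO library 1 was at 10.4, against a WT mean of 17.4. Marrow markers were abundant, with haemoglobin genes at 11.3 to 13.7% of reads in Aim2 KO and 13.8 to 19.9% in WT. The highest haemoglobin share was in WT library 1, and Aim2 KO library 3 stood apart in skeletal muscle genes, which summed to 7176 CPM there (reads scaled to a common library size), against 70.8 and 907 CPM in the other Aim2 KO libraries and 1182 to 2495 CPM in WT.

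Of the 7 members, Irf7 and Irf9 rose in Aim2 KO marrow and none fell. Irf7 was 2.32-fold higher (95% interval 1.75 to 3.07) and Irf9 1.55-fold higher (1.32 to 1.83). Irf1, Irf2, Irf3, Irf5 and Irf8 did not pass the test, with fold changes of 0.873 to 1.19. Without adjustment, p was under 0.05 for 4 members (Irf1, Irf3, Irf7 and Irf9) and for 11.5% of all genes. Genes with an adjusted p under 0.05 were called changed, and 0.478% of the 14238 genes tested were higher and 0.169% lower by that rule (68 and 24 genes). By size of fold, Irf7 ranked 32nd and Irf9 58th among the 68 higher genes. The median log2 fold change was 0.01 over the members and -0.01 over all tested genes. Aim2 KO and WT libraries did not overlap in 4 members, Irf1, Irf3, Irf7 and Irf9, and 12.9% of all tested genes were apart in this way.

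**Figure D1:**
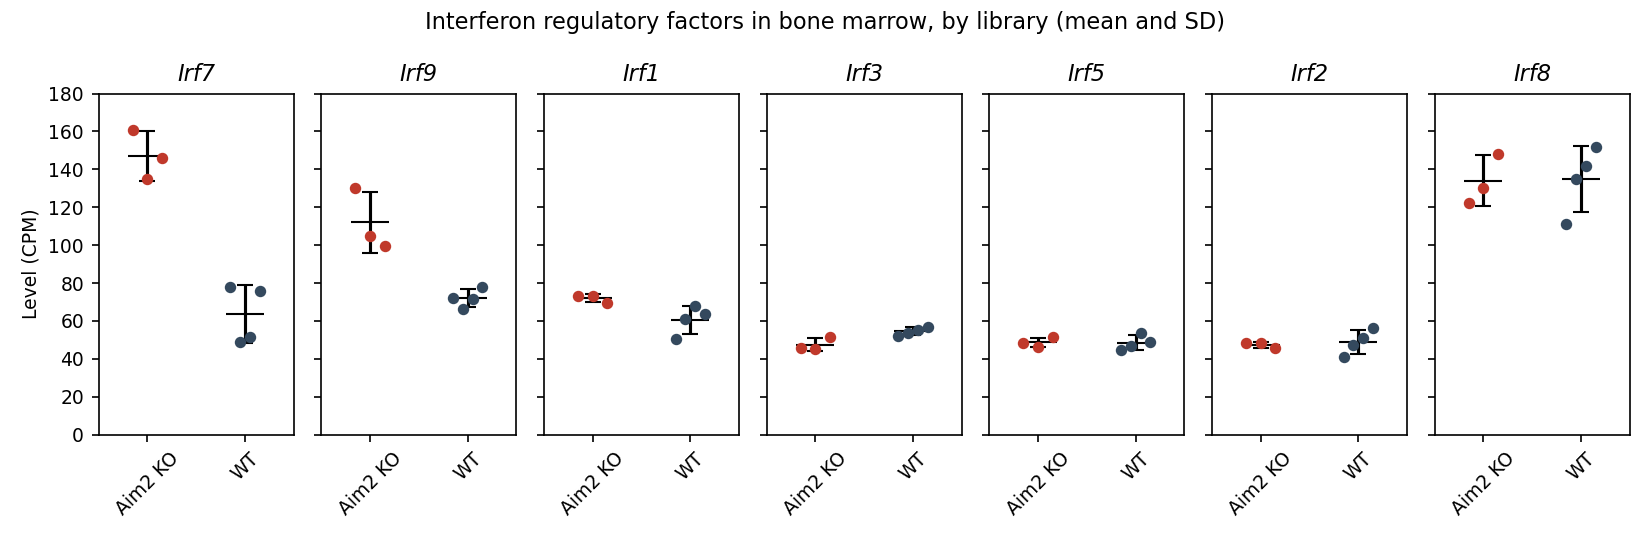
Level of each member in CPM (linear axis), 1 point per library, with the mean (bar) and SD (whiskers) for 3 Aim2 KO libraries at the left and 4 WT libraries at the right of each panel. The Aim2 KO points of Irf7 lie between 135 and 161 CPM, above every WT point, and those of Irf8 lie among the WT points.

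Irf7 (ENSMUSG00000025498.15) lies on the minus strand of chromosome 7, from 141262706 to 141266481 (GRCm38). It had 3434, 2812 and 3221 estimated reads in Aim2 KO libraries 1 to 3, against 1456, 1012, 1060 and 1589 in WT libraries 1 to 4. Scaled for library size, its level was 161, 135 and 146 CPM in Aim2 KO and 78.1, 49.0, 51.4 and 76.0 CPM in WT. Every Aim2 KO library was higher than every WT library, by at least 57.1 CPM, and the WT libraries formed a higher and a lower pair. The mean was 147 ± 13.1 CPM in Aim2 KO (SD, n = 3) and 63.6 ± 15.5 CPM in WT (SD, n = 4). The log2 fold change was 1.21 ± 0.18 (SE), and with the quasi-likelihood test of edgeR and Benjamini-Hochberg adjustment the adjusted p was 0.0327. The call rested on most libraries: with Aim2 KO library 1, 2 or 3 or WT library 2 or 3 left out, the adjusted p was 0.0851, 0.104, 0.0604, 0.0898 and 0.0978 in that order, while it was 0.0373 and 0.0488 without WT library 1 and WT library 4. The Irf7 log2 fold change stayed between 1.11 and 1.33 in all 7 such fits.

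Irf9 (ENSMUSG00000002325.15) runs from 55603571 to 55610030 on chromosome 14, plus strand. It had 2766, 2194 and 2200 estimated reads in Aim2 KO, against 1343, 1365, 1476 and 1626 in WT. Its level was 130, 105 and 99.5 CPM in Aim2 KO and 72.0, 66.1, 71.5 and 77.8 CPM in WT. The groups were apart by 21.7 CPM, and Aim2 KO library 1 stood highest, as it did for Irf7. The mean was 112 ± 16.1 CPM in Aim2 KO (SD, n = 3) and 71.9 ± 4.77 CPM in WT (SD, n = 4). The log2 fold change was 0.63 ± 0.10 (SE), with an adjusted p = 0.0451 from the same edgeR test. The Irf9 call lay close to the threshold: it held when Aim2 KO library 3 was left out (adjusted p = 0.0411) and was lost without any other library. Those adjusted p values were 0.0747 without Aim2 KO library 1, 0.14 without Aim2 KO library 2, and 0.0958, 0.154, 0.131 and 0.0766 without WT libraries 1 to 4, with the log2 fold change between 0.51 and 0.71 over all 7 fits.

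**Figure D2:**
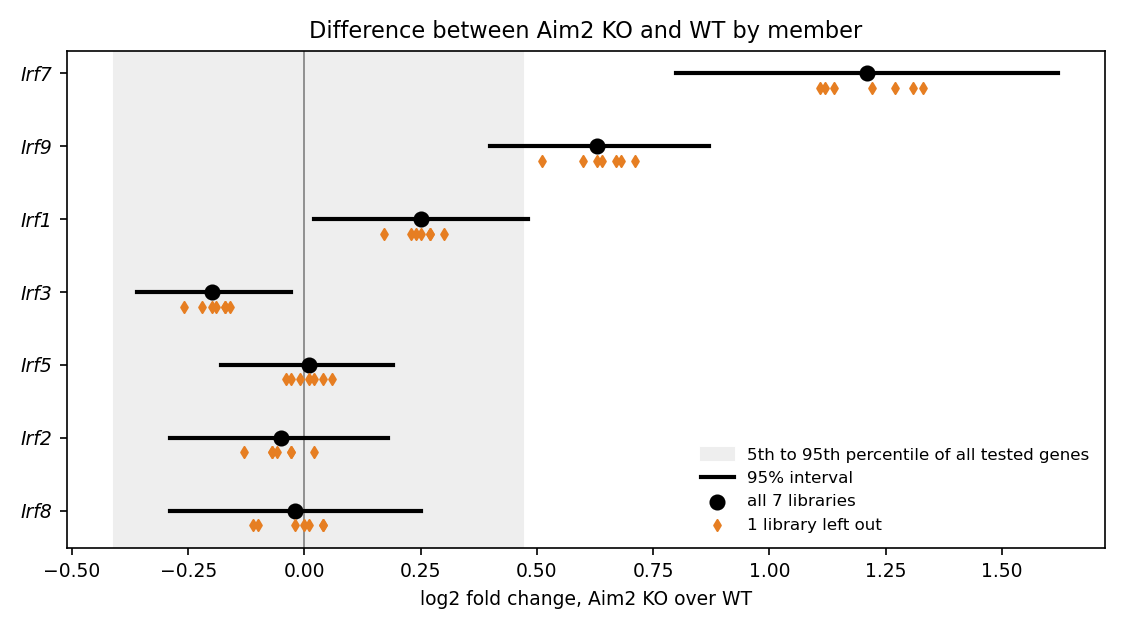
Log2 fold change of each member, Aim2 KO over WT, with its 95% interval (black), and the values with 1 of the 7 libraries left out (orange diamonds). The grey band runs from the 5th to the 95th percentile of all tested genes, -0.41 to 0.47; the 2 points to the right of it are Irf7 and Irf9.

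The sequences before the starts of these genes were read from the RefSeq promoter table (build GRCm38.p6), which held 10 windows for the 7 members. All windows, from 250 bases before to 50 bases after the start, were searched on both strands for the ISRE, taken as GAAA, any 2 bases and GAAA, and for the GAS, TTCNNNGAA, and a match describes letters only, not a bound site. The first shown are those of the members that changed, without the bases that fall in an annotated exon of the gene. They are 193 bases before Irf7 (chr7:141266482-141266674, minus strand) and 139 bases of intron before the start of the transcript Irf9-205 (chr14:55604329-55604467, plus strand).
Irf7: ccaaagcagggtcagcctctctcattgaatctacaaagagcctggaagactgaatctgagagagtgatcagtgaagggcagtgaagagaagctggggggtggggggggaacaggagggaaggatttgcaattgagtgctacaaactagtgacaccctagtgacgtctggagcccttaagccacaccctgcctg
Irf9: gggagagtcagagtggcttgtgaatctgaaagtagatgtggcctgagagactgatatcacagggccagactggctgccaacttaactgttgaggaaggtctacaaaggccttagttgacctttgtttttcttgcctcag
The Irf7 window and both Irf9 windows held no match to either motif, which says only that these letters are not in them.

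Matches lay in windows of members that did not pass the test, Irf1, Irf2 and Irf8. They are shown with the matches in capitals for Irf1 (chr11:53769764-53770013, plus strand) and Irf2 (chr8:46739495-46739731, plus strand).
Irf1: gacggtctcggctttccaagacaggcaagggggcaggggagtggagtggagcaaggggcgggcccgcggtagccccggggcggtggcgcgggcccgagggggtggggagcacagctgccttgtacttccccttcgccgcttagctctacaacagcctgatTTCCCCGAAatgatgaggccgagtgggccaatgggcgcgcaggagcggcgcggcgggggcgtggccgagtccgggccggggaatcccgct
Irf2: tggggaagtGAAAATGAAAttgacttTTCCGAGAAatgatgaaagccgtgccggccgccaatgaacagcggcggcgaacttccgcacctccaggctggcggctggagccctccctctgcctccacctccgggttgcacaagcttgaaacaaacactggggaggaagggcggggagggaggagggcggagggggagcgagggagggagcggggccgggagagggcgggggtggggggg
The Irf1 window had a GAS, TTCCCCGAA, 90 to 82 bases before the start. The Irf2 window had an ISRE, GAAAATGAAA, 241 to 232 bases before the start and a GAS, TTCCGAGAA, 224 to 216 bases before it, and the motifs did not overlap. The Irf8 window had 2 GAS matches, TTCTCGGAA and TTCAGAGAA. In all, 1 of 10 member windows held the ISRE and 3 held the GAS, against 3.44% and 8.3% of the 32851 windows of the table. In the 250 bases before the start alone, the same member windows matched, against 2.98% and 7.02% of all windows.

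Irf3, the factor that needs no induction, had the opposite sign to Irf7. The gene (ENSMUSG00000003184.15, chromosome 7, 44997648 to 45002848, plus strand) was at 45.8, 45.3 and 51.5 CPM in Aim2 KO and 51.8, 53.7, 55.4 and 56.9 CPM in WT. The groups were apart by only 0.249 CPM, between Aim2 KO library 3 and WT library 1. Its mean was 47.5 ± 3.48 CPM in Aim2 KO (n = 3) and 54.5 ± 2.19 CPM in WT (n = 4), a log2 fold change of -0.20 ± 0.07 (SE) that did not pass (adjusted p = 0.344, edgeR). Its first bases overlap Bcl2l12 on the opposite strand over 1065 bases, and the log2 fold change of Bcl2l12 was -0.16 (adjusted p = 0.561).

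Irf1 (ENSMUSG00000018899.16, chromosome 11, 53770014 to 53778374, plus strand) was at 73.4, 73.3 and 69.6 CPM in Aim2 KO and 50.4, 60.8, 67.8 and 63.9 CPM in WT. The Aim2 KO libraries were close to one another and 1.88 CPM above the highest WT library, while WT library 1 was low. The mean was 72.1 ± 2.14 CPM in Aim2 KO (n = 3) and 60.7 ± 7.42 CPM in WT (n = 4). The log2 fold change of 0.25 ± 0.10 (SE) did not pass (adjusted p = 0.403). Irf2, its competitor (ENSMUSG00000031627.9, chromosome 8, 46739732 to 46847458, plus strand), was at 48.1, 48.1 and 45.6 CPM in Aim2 KO and 41.2, 47.3, 51.2 and 56.2 CPM in WT. The WT libraries lay on both sides of the Aim2 KO libraries, and the log2 fold change was -0.05, with a 95% interval of -0.29 to 0.18 (adjusted p = 0.898).

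Irf5 (ENSMUSG00000029771.12, chromosome 6, 29526625 to 29541871, plus strand) was at 48.1, 46.5 and 51.4 CPM in Aim2 KO and 44.6, 46.6, 53.8 and 48.7 CPM in WT. Its groups overlapped, and the 95% interval of the log2 fold change ran from -0.18 to 0.19. Irf8 (ENSMUSG00000041515.10, chromosome 8, 120736358 to 120756694, plus strand) was at 122, 130 and 148 CPM in Aim2 KO and 111, 135, 142 and 152 CPM in WT. These groups overlapped as well. The 95% interval of the fold was 0.821 to 1.19. The predicted gene Gm20388 spans all of Irf8 on the same strand. The level of Gm20388 varied widely, at 25.7 ± 15.8 CPM in Aim2 KO (n = 3) and 15.3 ± 18.6 CPM in WT (n = 4). Of 7049 distinct 31-base words in Irf8 transcripts, 0 also occurred in transcripts of other genes.

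Levels were compared between genes in TPM, which allow for the length of each transcript. In Aim2 KO marrow Irf7 was the most abundant member, at 85.4 ± 11.6 TPM (SD, n = 3), above Irf3 in all 3 libraries and with ranges that did not overlap. Next came Irf3 at 50.4 ± 5.34, Irf8 at 50.3 ± 6.71 and Irf9 at 48.8 ± 8.49 TPM, whose ranges overlapped, so that these 3 did not differ beyond their spread. Irf1 followed at 36.7 ± 1.91 TPM, apart from Irf9 above it and from Irf5 below it, and Irf5 (24.9 ± 2.56 TPM) and Irf2 (23.6 ± 2.54 TPM) overlapped. In WT marrow the first place was held by Irf3, at 55.8 ± 4.83 TPM (n = 4) and above Irf8 (47.2 ± 9.79 TPM) in all 4 libraries. Irf7 came after them at 33.6 ± 6.87 TPM, followed by Irf1 at 28.3 ± 5.61, Irf9 at 28.2 ± 3.42, Irf5 at 22.0 ± 3.97 and Irf2 at 21.7 ± 4.54 TPM, and the ranges of each neighbouring pair in the WT order overlapped.

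TPM were not rescaled between libraries as CPM were. On log2 TPM the median of all genes was itself higher in Aim2 KO, by 0.103 and 0.129 (pseudocount 1 and 0.1). Summed over the members, the level was 342, 286 and 332 TPM in Aim2 KO and 195, 231, 255 and 265 TPM in WT. Irf7 made up 28.3, 25.7 and 25.9% of that sum in Aim2 KO, against 18.6, 11.5, 11.6 and 15.8% in WT. The share of Irf3 was 14.2, 16.1 and 17.0% in Aim2 KO and 25.0, 24.3, 23.2 and 22.2% in WT. In both shares the groups were apart, and they were also apart in the shares of Irf2, Irf5 and Irf9. A share of a sum also goes down when other members go up. In TPM itself the ranges of Irf3 overlapped, at 46.1 to 56.4 in Aim2 KO and 48.9 to 59.3 in WT. The same was true of Irf2, at 21.4 to 26.4 in Aim2 KO and 15.7 to 26.7 in WT. It was also true of Irf5, at 22.2 to 27.2 in Aim2 KO and 17.0 to 26.7 in WT. How often shares within other sets of genes were apart was not counted.

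**Figure D3:**
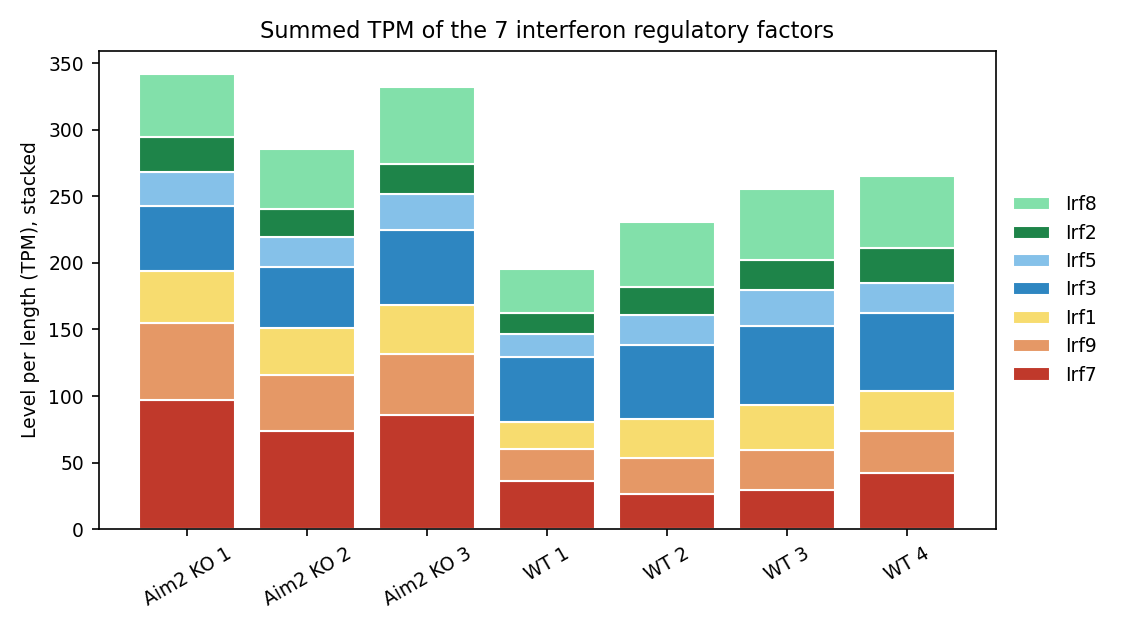
Level of the 7 members in TPM, stacked, in 3 Aim2 KO libraries (left) and 4 WT libraries (right). The lowest segment, Irf7, is 73.5 to 96.7 TPM tall in Aim2 KO and 26.6 to 41.9 TPM in WT, and the sum is highest in Aim2 KO library 1, at 342 TPM.

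A ratio within a library does not depend on how libraries are scaled to one another. The log2 ratio of Irf7 to Irf3 in TPM was 0.99, 0.67 and 0.61 in Aim2 KO and -0.43, -1.08, -1.0 and -0.49 in WT. Irf7 exceeded Irf3 in every Aim2 KO library and was below it in every WT library. The means were 0.76 ± 0.20 in Aim2 KO (SD, n = 3) and -0.75 ± 0.34 in WT (SD, n = 4), a difference of 1.51 or 2.84-fold (two-sided exact permutation test, p = 0.0571, the smallest p that 3 against 4 libraries allow; adjusted p = 0.114 over 2 ratios). For the activator Irf1 over the competitor Irf2 the log2 ratio was 0.65 ± 0.08 in Aim2 KO and 0.39 ± 0.16 in WT, a difference of 0.26 (exact permutation test, p = 0.114, adjusted p = 0.114). Neither ratio passed, and this test could not have gone under 0.05 at this number of libraries.

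At the level of transcripts, 33 of the 67 listed transcripts of the members were tested and none changed. Only 12 of 34507 transcripts changed in all (0.0348%). Without adjustment, p was under 0.05 for 8 member transcripts, 5 of Irf7 and 3 of Irf9, and for 6.51% of all transcripts. All 9 tested transcripts of Irf7 and all 5 of Irf9 had a log2 fold change above 0, and none of the 8 tested of Irf3 did. Transcripts of 1 gene share reads that the quantification divides among them, so these signs are not separate observations.

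The nearest to the threshold was Irf7-202, a protein-coding transcript with 572, 496 and 494 estimated reads in Aim2 KO, against 163, 139, 161 and 218 in WT. Its groups were far apart and differed by 1.54 ± 0.16 on the log2 scale (SE), with an adjusted p = 0.0591. The main coding transcript, Irf7-201, had 1484, 1272 and 1445 reads in Aim2 KO and 671, 444, 341 and 760 in WT, with a wider spread in WT (log2 fold change 1.25, adjusted p = 0.339). The retained-intron form Irf7-210 had 683, 475 and 685 reads in Aim2 KO and 302, 238, 346 and 297 in WT (log2 fold change 0.97, adjusted p = 0.212). Coding transcripts together took 72.1 to 75.8% of Irf7 reads in Aim2 KO and 60.1 to 73.9% in WT, overlapping ranges. In each of these 3 transcripts the lowest Aim2 KO library held more reads, not scaled for library size, than the highest WT library. The share of all transcripts that were apart in this way was not counted.

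For Irf9, the reads divided mainly between Irf9-202, with 1209, 956 and 948 in Aim2 KO and 429, 639, 666 and 580 in WT, and Irf9-205, with 979, 829 and 841 in Aim2 KO and 653, 364, 482 and 715 in WT. Each pair of groups was apart in these unscaled reads, but neither transcript passed (log2 fold change 0.77 and 0.59, adjusted p = 0.248 and 0.749). As for Irf7, how many of all transcripts were apart in this way was not counted. Retained-intron forms took 11.6 to 13.9% of Irf9 reads in Aim2 KO and 11.7 to 13.3% in WT. In Irf3 that share was far larger, 49.1 to 55.9% in Aim2 KO and 50.1 to 56.7% in WT. A single coding transcript held most reads of Irf1, Irf2, Irf5 and Irf8.

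**Figure D4:**
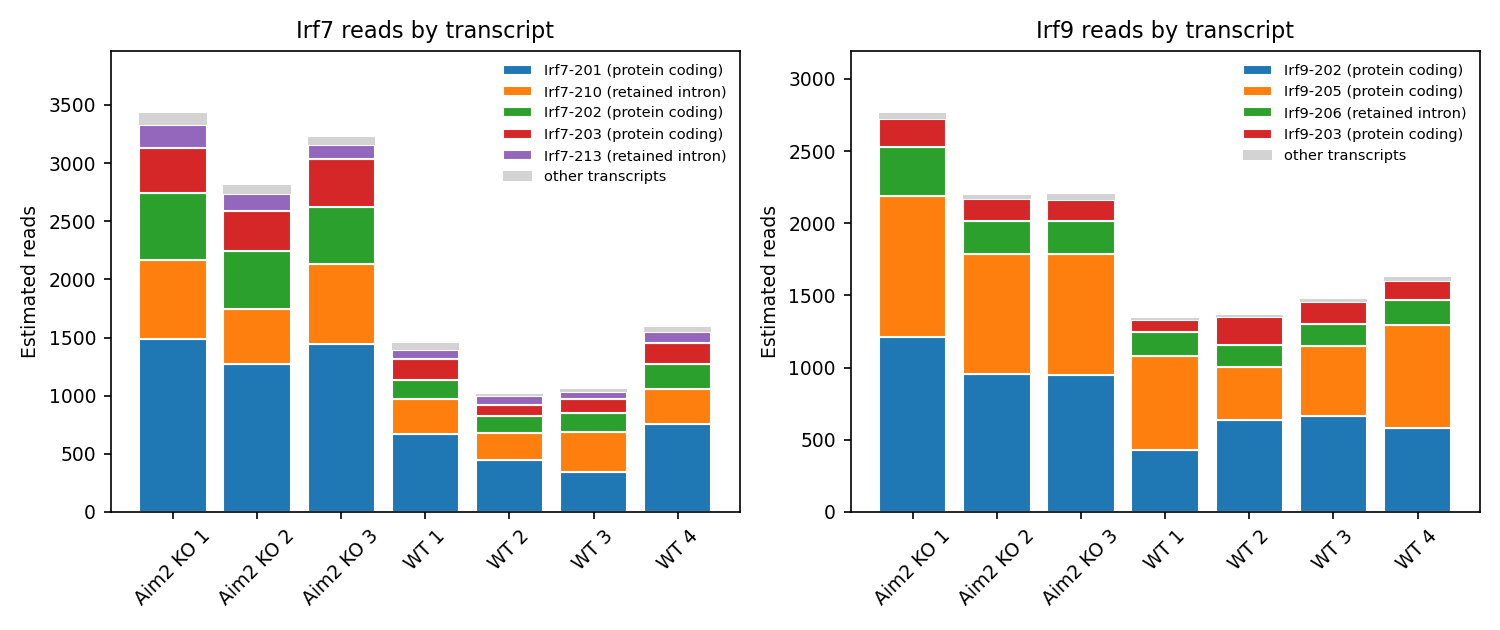
Estimated reads of Irf7 (left) and Irf9 (right) by transcript, stacked, in 3 Aim2 KO libraries followed by 4 WT libraries. The coding transcript Irf7-202 (green, left) holds 494 to 572 reads in Aim2 KO and 139 to 218 in WT, and every column of Irf7 in Aim2 KO is taller than any in WT.

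The genes beside the members were looked at because Irf7 and Irf9 lie close to others. Phrf1 overlaps the end of Irf7 by 45 bases on the opposite strand and was at 68.0 ± 6.47 CPM in Aim2 KO (n = 3) and 69.4 ± 1.32 CPM in WT (n = 4), a log2 difference of -0.03 (adjusted p = 0.93). The nearest tested genes on each side of Irf7, Rassf7 and Deaf1, had log2 fold changes of -0.41 and -0.06 (adjusted p = 0.492 and 0.838). The strand setting of the quantification is not given in the sources used here, so reads from overlapping bases of opposite strands cannot be told apart. Rnf31, a subunit of a ubiquitin ligase complex, overlaps the start of Irf9 by 123 bases on the same strand. Rnf31 was at 40.3 ± 3.77 CPM in Aim2 KO and 34.5 ± 1.08 CPM in WT, a log2 fold change of 0.22 (adjusted p = 0.33). Of 5517 distinct 31-base words in Irf9 transcripts, 234 (4.24%) also occurred in other genes, 93 of them in Rnf31, while those of Irf7 were unique to it.

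Over the 7 libraries, the genes whose pattern was most like that of Irf7 were Oas3, Oasl1 and Isg15, all known as interferon-induced. Likeness was the root-mean-square difference between log2 CPM profiles centred on their means, among 9385 genes with at least 10 CPM on average, and it was 0.135, 0.156 and 0.169 for these 3, against a median of 0.672. For Irf9 the nearest were Asprv1 (0.059), the RNA-editing enzyme Adar (0.079) and the interferon-inducible GTPase Irgm1 (0.091), against a median of 0.356. The nearest to Irf1 were Armc7, Sp140 and Nin, and the nearest to Irf3 were Upf3a, Pex6 and Safb. Gltp, Adi1 and Cd81 were nearest to Irf2, Pkd2, Eml4 and Mfsd14a to Irf5, and Jdp2, Itpripl1 and Abcg3 to Irf8. These values describe 7 libraries in 2 groups and carry no test.

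Upstream of the factors, the interferons themselves were almost without reads. Of 19 interferon genes in the list, 16 had 0 reads in every library, which allows up to 3 reads in each. None passed the filter for testing. Ifnb1 had 1 read, in Aim2 KO library 2, and Ifnab had 1 read in each of Aim2 KO libraries 2 and 3, with 0 for both genes in WT. Ifng had 7, 2 and 3 reads in Aim2 KO and 2, 5, 4 and 1 in WT. A difference in interferon transcripts was thus not detectable at this depth.

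Among 20 tested kinases and adaptors that switch the factors on, 1 rose, none fell and 19 did not pass, with a median log2 fold change of 0.04. The riser was Myd88, the adaptor of most Toll-like receptors and of the route to Irf5 and Irf7. It was at 75.6 ± 3.20 CPM in Aim2 KO (n = 3) and 56.9 ± 2.47 CPM in WT (n = 4), 0.41 ± 0.07 higher on the log2 scale (SE; adjusted p = 0.0421), but no fit with 1 library left out kept it (adjusted p = 0.0607 to 0.155). The kinases of Irf3 and Irf7 had values near those of WT, with a log2 fold change of 0.01 for Tbk1 (adjusted p = 0.979) and -0.07 for Ikbke (adjusted p = 0.778).

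Of 23 nuclear partners, 2 rose and none fell, with a median of 0.01. Stat2, the partner of Irf9, was among the risers, at 58.2 ± 2.46 CPM in Aim2 KO and 42.5 ± 1.31 CPM in WT (difference on the log2 scale 0.45 ± 0.06, SE; adjusted p = 0.0248). With 1 library left out, Stat2 passed in 2 of 7 fits (adjusted p up to 0.0999), and 0 or 1 of the list passed. Spib, an Ets factor that binds DNA beside Irf proteins in lymphoid and plasmacytoid dendritic cells, was at 38.6 ± 9.37 CPM in Aim2 KO and 68.5 ± 14.3 CPM in WT, apart but not past the test (adjusted p = 0.144).

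Each of the 18 tested interferon receptor and JAK-STAT genes had a positive log2 fold change (median 0.17, lowest 0.01), and 3 passed. They included Stat2 and Usp18. Usp18, an inhibitor of the type I interferon receptor, was higher, with 28.0 ± 0.947 CPM in Aim2 KO against 11.4 ± 1.48 CPM in WT (adjusted p = 0.00561). The receptor subunits Ifnar1 and Ifnar2 had log2 fold changes of 0.05 and 0.16 (adjusted p = 0.843 and 0.46). With 1 library left out, 1 or 2 of the list passed, Usp18 in all 7 fits.

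Downstream, 24 interferon-stimulated genes that the Irf9 complex is known to drive had a median log2 fold change of 1.15, against -0.01 over all genes. Of these, 15 rose, none fell and 9 did not pass. The count with 1 library left out went down to 7 without Aim2 KO library 2 and 8 without WT library 2. Oas1g, Oas1a, Usp18 and Dhx58 passed in all 7 such fits. Oas1a, which makes oligoadenylates on double-stranded RNA, was at 61.5 ± 9.77 CPM in Aim2 KO (n = 3) and 17.7 ± 3.17 CPM in WT (n = 4).

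Of 23 tested genes of the interferon gamma response that Irf1 is known to drive, 4 rose and none fell, with a median log2 fold change of 0.37. They were the GTPases Iigp1, Igtp, Irgm1 and Gbp7, with log2 fold changes of 0.99, 0.64, 0.75 and 0.63 (adjusted p = 0.0206, 0.0262, 0.0286 and 0.0327). None of the 4 passed without WT library 2 or WT library 3, and 1 of the list passed without Aim2 KO library 1 or 2. DESeq2 called 11 of this list and voom with sample weights called 7, while 2 were called on each TPM scale and 0 with the replicate block.

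No gene of the lists for Irf8 and Irf5 passed edgeR's test. Of 23 tested Irf8-dependent genes of monocytes and dendritic cells, 5 had an unadjusted p under 0.05, as did 1631 of all genes, and the median log2 fold change was 0.06. The protease gene Ctsc had the smallest p, with 133 ± 16.4 CPM in Aim2 KO against 85.6 ± 14.3 CPM in WT (adjusted p = 0.122). Of 8 tested Irf5 targets, 2 had an unadjusted p under 0.05, with a median of 0.29. These were the cytokine gene Il1b, with 24.7 ± 3.87 CPM in Aim2 KO against 14.5 ± 2.85 CPM in WT (adjusted p = 0.107), and the chemokine gene Cxcl10 (adjusted p = 0.218). DESeq2 and voom each called 1 gene in each of these lists.

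**Figure D5:**
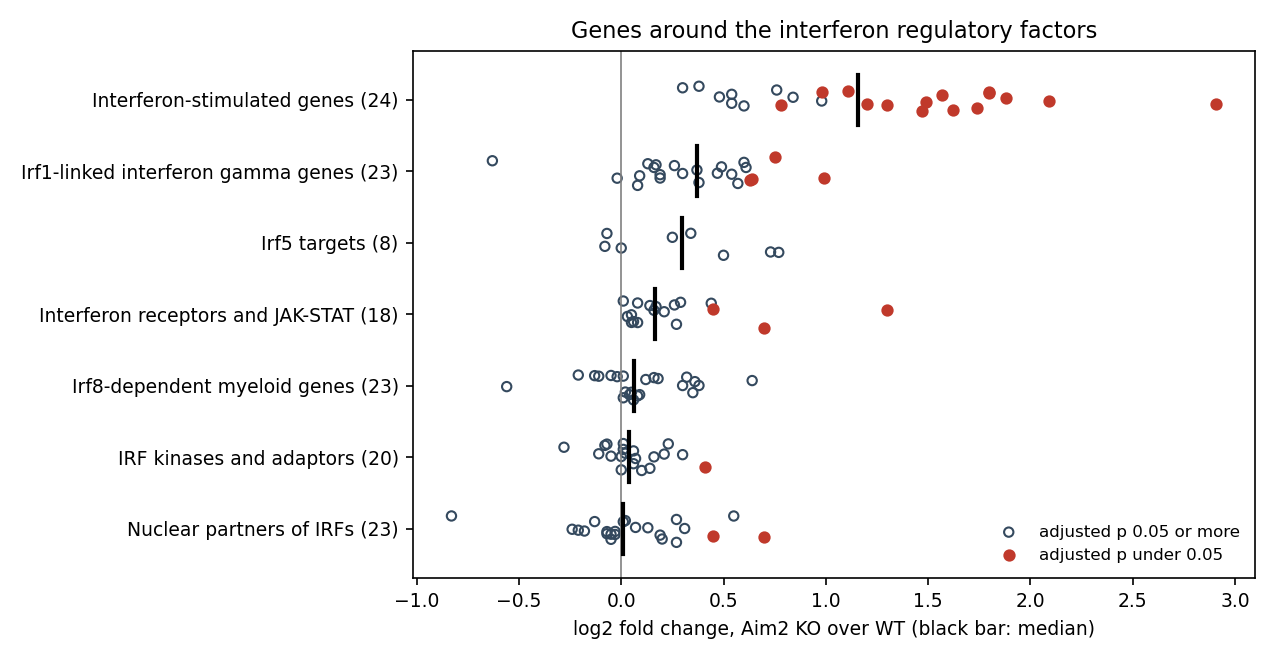
Log2 fold change of each tested gene in 7 lists around the interferon regulatory factors, Aim2 KO over WT, with the number tested in brackets and the median as a black bar. Red points passed an adjusted p of 0.05; 15 of them are among the 24 interferon-stimulated genes, whose median is 1.15, and none is in the Irf5 or Irf8 list.

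Irf8, Irf7 and Irf5 are used more in some marrow cells than in others, so markers of these cells were read beside them. In bulk tissue, fewer cells of a type and less RNA per cell cannot be told apart. The 12 plasmacytoid dendritic cell markers, of cells rich in Irf7 and Irf8, summed to 243 to 356 CPM in Aim2 KO and 298 to 359 CPM in WT, and none changed. Of 11 tested markers of conventional dendritic cells, which need Irf8, 1 fell (Cd209a) and 3 had a log2 fold change above 0 (median -0.13). The list summed to 702 to 897 CPM in Aim2 KO and 797 to 1464 CPM in WT. The 12 monocyte markers summed to 1278 to 1483 CPM in Aim2 KO and 808 to 1157 CPM in WT. Each of the 12 had a positive log2 fold change (median 0.44, lowest 0.01), and 1, Cd300e, passed. The 12 B lineage markers summed to 162 to 266 CPM in Aim2 KO and 365 to 588 CPM in WT. Of these, 0 had a log2 fold change above 0 (median -1.03), and none was past the test. Plasma cell markers summed to 1560 to 2527 CPM in Aim2 KO and 889 to 1276 CPM in WT (1 of 10, Ighg2c, rose), and neutrophil markers to 24383 to 26428 CPM in Aim2 KO and 18521 to 24115 CPM in WT. Without adjustment, the edgeR p was under 0.05 for 2 plasmacytoid and 4 conventional dendritic cell markers, 9 monocyte and 10 B lineage markers. The same held for 8 plasma cell and 4 neutrophil markers, and for 11.5% of all genes. No marker in these lists was at 0 reads in all libraries. The part of these markers in the levels of Irf7, Irf9 or the other members was not tested.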

How the data were processed

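Bone marrow of 3 Aim2 KO and 4 WT mouse libraries was sequenced as strand-specific mRNA, per the labels' protocols. Reads were checked with FastQC 0.11.9 and quantified with Salmon 1.7.0, with build GRCm38.p6 and DESeq2 also named, per the submitters' processing notes; the Salmon options are not given in the sources used here. For 116546 transcripts the authors deposited estimated counts, which need not be whole, and TPM values. The deposited effective length, another column, served as an offset in 1 alternative.

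Transcripts were joined to genes with GENCODE M21 (569 without a gene were left out), summed and rounded. Genes were filtered with filterByExpr and scaled with TMM, and genotype was tested with edgeR 4.0.16's quasi-likelihood test (R 4.3.3) with Benjamini-Hochberg adjustment over 14238 genes, or over all tested transcripts. CPM use TMM-scaled library sizes. A list is described by its counts and median, with no set test. Alternatives used limma 3.58.1, DESeq2 1.42.0, other scalings, filters and units, and each library left out.

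The members and gene lists were chosen with earlier results of these data known. Named genes are the members, their neighbours, the up to 4 list genes of smallest p, and the 3 nearest in pattern to each member; further list genes were chosen after their values were seen, and the values of some genes are not reported here. Counting limits cover counting error only. Some overlapping noncoding genes of Irf1 and Irf2 were not analysed here.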

Additional observations from a re-analysis of the deposited data

How the results depend on the processing

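Irf7 and Irf9 kept a positive log2 fold change in every alternative run, at 1.18 to 1.36 and 0.63 to 0.79 (1.11 to 1.33 and 0.51 to 0.71 with 1 library left out). Irf7 lost its call with the effective-length offset (1.18, adjusted p = 0.0542; 3.67e-09 to 0.0542 over the settings). Irf9 lost it with genes of at least 1 CPM (0.64, adjusted p = 0.0527), the offset (0.65, 0.0576), log2(TPM + 1) (0.77, 0.0816), log2(TPM + 0.1) (0.79, 0.0857) and the replicate block (0.67, 0.0912); its range was 6.81e-06 to 0.0912. The cause was not tested. Members called numbered 0 with the offset, 1 with at least 1 CPM, either TPM setting or the replicate block, 0 to 1 with 1 library left out, and 2 under the others. Values near 0 changed sign: Irf2 was 0.13 and 0.14 on the TPM scales (pseudocount 1 and 0.1), 0.03 with the block and -0.13 to 0.02 with 1 library left out. Irf8 was 0.11 and 0.11, 0.05, and -0.11 to 0.04 in the same order, and Irf5 was -0.07 with voom and -0.04 to 0.06 with 1 library left out. Among other genes, Slc15a4 was 0.01 with the offset and 0.16 and 0.18 on the TPM scales, Tnpo3 -0.12 with the offset and -0.02 to 0.06 with 1 library left out, and Phrf1 0.04 with voom and -0.09 to 0.04.

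Over all genes, 92 changed (73.9% higher), against 405 with DESeq2 (64.0% higher), 305 with voom (60%), 55 with the offset, 50 and 49 on the TPM scales (90% and 87.8%), 198 at an adjusted p under 0.1, 21 with the replicate block (95.2%) and 17 to 65 with 1 library left out. The TPM scales put the median of all genes at 0.103 and 0.129. Changed transcripts numbered 0 with the block and 0 to 10 with 1 library left out. With a stricter ISRE (GAAAC, any base and GAAA) 0 member windows matched. Sample numbers gave no sign of pairing the libraries (correlation of deviations 0.106, -0.0282 and -0.267). Libraries with different numbers gave -0.213 to 0.255, and with so few libraries this check cannot exclude pairing. With pairs, the Irf7 to Irf3 ratio differed by 1.59 and the Irf1 to Irf2 ratio by 0.18, and the block left 8 of the interferon-stimulated genes called. None of the interferon genes passed the filter on low counts in the main fit, and fits of them without that filter are not reported here.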

Other observations

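Other proteins that work with the interferon regulatory factors had values that did not pass the test. The corepressors that bind Irf2 were at 33.0 ± 1.94 CPM in Aim2 KO and 38.1 ± 2.93 CPM in WT for Irf2bp1 (SD, n = 3 and 4; adjusted p = 0.396, edgeR), and at 126 ± 8.66 CPM in Aim2 KO and 131 ± 5.87 CPM in WT for Irf2bp2 (adjusted p = 0.833). Spi1, the Ets factor that binds DNA together with Irf8 in myeloid cells, was at 172 ± 8.39 CPM in Aim2 KO and 139 ± 24.5 CPM in WT (adjusted p = 0.448). Batf2, a partner of Irf1 in macrophages, was scarce, at 1.49 ± 0.235 CPM in Aim2 KO and 1.01 ± 0.098 CPM in WT (adjusted p = 0.369).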
